A study of Homo sapiens with 8 samples.

Results

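RASSF4 and 8 related genes of the RASSF and Hippo kinase pathway were followed through chromium exposure of a human lymphoblastoid cell line. Lines of this kind are made by infecting B cells with Epstein-Barr virus, which keeps them dividing in culture. The set holds RASSF1, RASSF2, RASSF3, RASSF4, RASSF5 and RASSF7, the kinase genes STK3 and STK4, and the scaffold gene SAV1, picked by symbol. All 9 were found among the 23710 gene symbols of the count tables, and all 9 passed the filter on low counts, as did 12536 genes in all. The 4 groups were untreated controls, cells exposed for 24 h to 5 µM hexavalent chromium, and cells taken 3 days and 7 days after treatment. Each had 2 libraries, which the labels call biological replicates without saying whether the cultures were separate, so p values measure only the spread between these libraries. All libraries came from 1 cell line grown in RPMI medium, and no unexposed cells at the later times were analysed here, so exposure and time in culture cannot be told apart. Days are counted post treatment in the labels but from the start of exposure in the series text, and which holds is not known here.

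RASSF proteins carry a RAS association domain, which binds RAS and RAP GTPases. RASSF1 to RASSF6 also end in a SARAH domain, a short helix through which they pair with the Hippo kinases MST1 and MST2 (encoded by STK4 and STK3), and SAV1 uses the same kind of helix to bind these kinases. In the Hippo pathway MST kinases activate LATS kinases, which restrain the coactivators YAP and TAZ. In lymphocytes, RASSF5 and STK4 are best known for linking RAP1 to integrin adhesion and cell trafficking, and inherited loss of STK4 causes an immunodeficiency.

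RASSF4 was put at the head of the set because earlier results of these data showed it low at 3 days, so its levels are given as a description, with no test. The other 8 were added as relatives and partners and are tested. Total gene counts ran from 9478459 to 11110830 per library. The B cell check held: all 8 B cell markers reached 10 CPM (counts scaled to library size), with summed levels of 4253 to 7163 CPM in the 3 and 7 day libraries, against 5155 to 5902 CPM in the control and 24 h libraries. Of the markers of other cells, 0 of 7 T and NK cell genes, 0 of 7 stromal or epithelial genes and 0 of 5 erythroid genes reached 10 CPM in any library, and of 7 myeloid genes only ITGAM did. Replicate 1 at 3 days and replicate 1 at 7 days stood apart from the rest. In these a smaller share of reads fell under no feature (36.5% to 39.4%, against 44.4% to 51.5% in the other 6 libraries) and the 20 highest genes took 12.5% of gene counts, against 8.88% to 9.65%. The 24 h libraries also did not group with each other: control replicate 1 was nearest to 24 h replicate 2, and control replicate 2 to 24 h replicate 1. At 3 and 7 days, libraries of the same replicate number were nearest to each other. The contrast of the later with the earlier groups takes all libraries as separate. Its SE and p may therefore be too small wherever it is given. For members whose results rest on replicate 1 at the later times, fold changes are given with and without it. For partner genes the fold change without it is not given, and some have their levels shown by replicate.

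RASSF4 encodes a RAS association protein that binds MST1, and was lower in all 4 libraries at 3 and 7 days than in all 4 earlier libraries. It stood at 41.6 and 36.2 CPM in control, 35.9 and 36.6 CPM at 24 h, 13.2 and 15.2 CPM at 3 days, and 17.2 and 15.6 CPM at 7 days. The counts behind these were 128 to 170 reads per library at 3 and 7 days, against 354 to 474 in control and at 24 h. Ordered by level, control (38.9 ± 3.82 CPM) and 24 h (36.3 ± 0.53 CPM) were within their spread of each other, and both later groups lay far below them, at 16.4 ± 1.17 CPM at 7 days and 14.2 ± 1.42 CPM at 3 days (SD, n = 2 each). Both 7 day libraries lay above both 3 day libraries (5.24% of all tested genes did so).

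In the edgeR fit over all 8 libraries, the log2 fold change of RASSF4 was -1.46 ± 0.22 (SE) at 3 days and -1.25 ± 0.22 at 7 days against control, or 0.364 and 0.421 of the control level. Against 24 h it was -1.35 ± 0.22 at 3 days and -1.14 ± 0.22 at 7 days. Of the 12536 genes, 1.45% had a lower value at 3 days and 2.43% at 7 days against control. RASSF4 was chosen for its low level at 3 days, so a low rank follows from that choice and is a description only. The 3 and 7 day comparisons use the same control libraries, so the second does not repeat the first independently. At 24 h against control the log2 fold change was -0.10 ± 0.22, and at 7 against 3 days it was 0.21 ± 0.22. These contrasts share libraries with the choice of RASSF4 and are likewise given without a test. In bulk RNA, fewer cells of a kind and less RNA per cell cannot be told apart.

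RASSF4 was as low in one late replicate as in the other. Relative to the mean of the 4 control and 24 h libraries, its log2 CPM was -1.31 in replicate 1 at 3 and 7 days (mean of 2) and -1.28 in replicate 2, where the SD among the earlier libraries was 0.10.

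**Figure D1:**
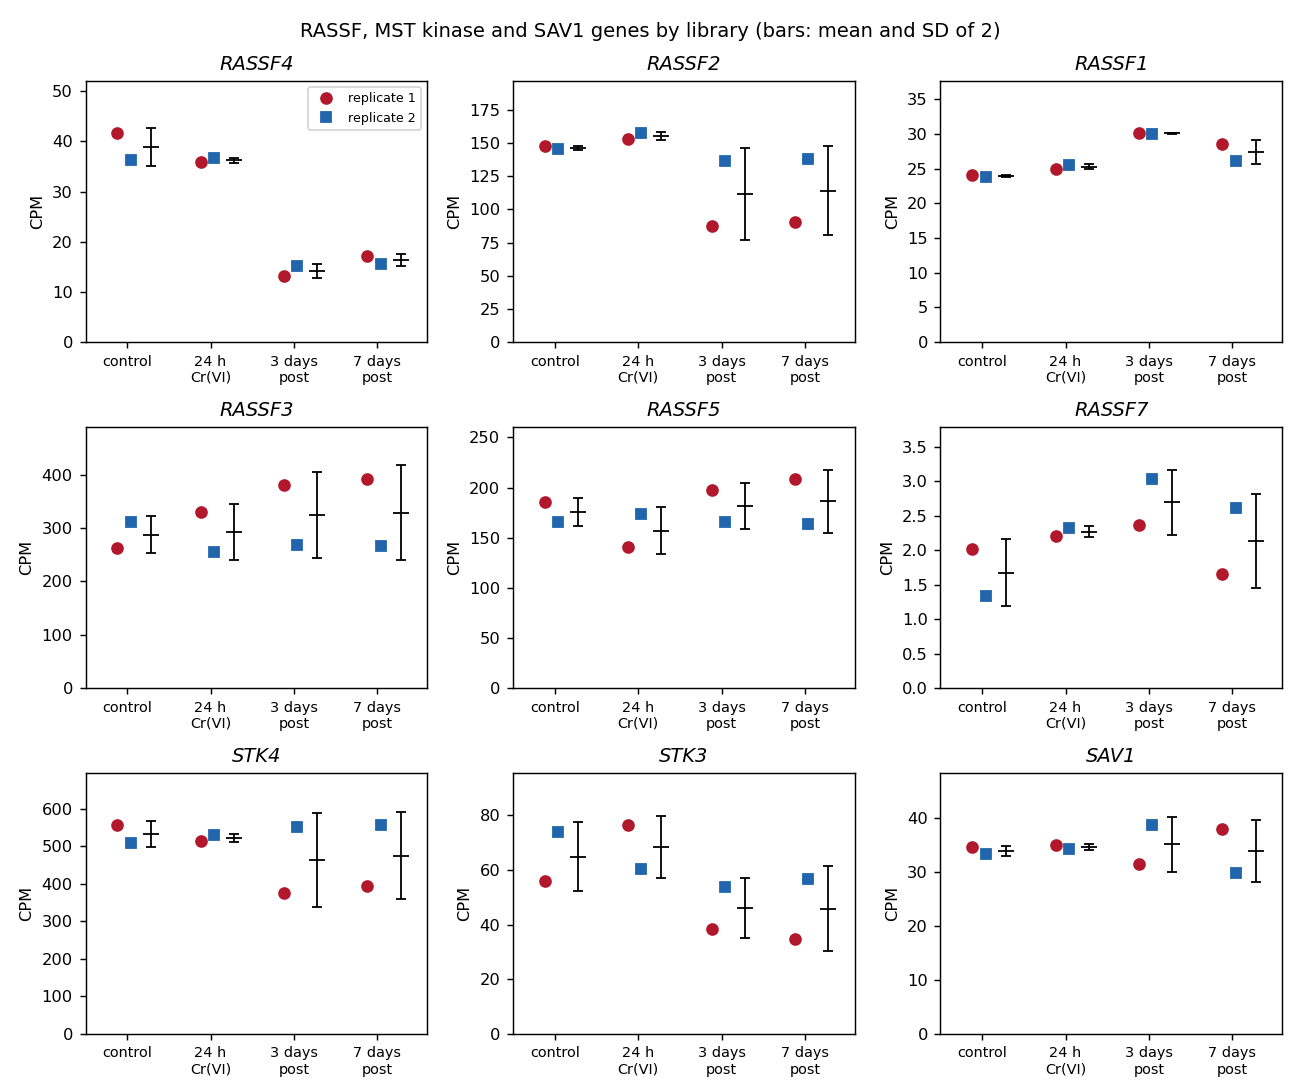
CPM of each of the 9 genes (y axis, from 0) in the 4 groups (x axis), with a point per library coloured by replicate number and a bar for mean and SD of 2. RASSF4 lies between 13.2 and 17.2 CPM in all 3 and 7 day libraries, below 35.9 CPM, its lowest earlier library, whereas RASSF2, STK3 and STK4 are lowest in replicate 1 at 3 and 7 days.

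Besides RASSF4, 2 of the other 8 genes had late and early libraries that did not overlap, RASSF2 below (as 7.43% of all tested genes) and RASSF1 above (5.93%). The promoters of these 3 genes are shown because RASSF4 is the gene the set was built around and the other two are those without overlap, a count near the background. Each is the 250 bases before the start that RefSeq gives (GRCh38.p14, which is not the build of the count tables), written 5′ to 3′ on the gene's strand, with capitals marking each GC box (GGGCGG on either strand, the motif bound by SP1-type factors). For RASSF4 the window is chr10:44959552-44959801 on the plus strand, and for RASSF2 and RASSF1 it is chr20:4815148-4815397 and chr3:50337451-50337700, both on the minus strand. The RASSF2 and RASSF1 starts lie inside the annotated gene, which has a farther start upstream.
RASSF4: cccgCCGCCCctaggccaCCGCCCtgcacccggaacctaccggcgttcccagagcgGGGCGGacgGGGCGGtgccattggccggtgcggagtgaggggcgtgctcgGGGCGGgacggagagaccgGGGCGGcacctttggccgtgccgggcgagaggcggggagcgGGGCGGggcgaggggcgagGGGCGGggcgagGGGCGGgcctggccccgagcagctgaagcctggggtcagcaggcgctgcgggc
RASSF2: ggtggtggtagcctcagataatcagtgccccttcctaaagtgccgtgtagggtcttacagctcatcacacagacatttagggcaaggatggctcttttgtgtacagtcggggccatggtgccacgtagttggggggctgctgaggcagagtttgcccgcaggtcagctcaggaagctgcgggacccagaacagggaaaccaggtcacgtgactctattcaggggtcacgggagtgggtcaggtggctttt
RASSF1: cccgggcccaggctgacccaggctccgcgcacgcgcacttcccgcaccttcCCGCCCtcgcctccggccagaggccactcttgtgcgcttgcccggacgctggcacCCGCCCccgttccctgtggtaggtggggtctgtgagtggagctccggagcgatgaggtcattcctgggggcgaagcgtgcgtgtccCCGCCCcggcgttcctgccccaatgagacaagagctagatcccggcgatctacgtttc

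The 3 windows differ in makeup. RASSF4 holds 9 GC boxes and 32 CpG dinucleotides and is 80.0% G and C, RASSF1 holds 3 boxes and 25 CpG, and RASSF2 holds 0 boxes and 7 CpG. A GC box occurs in 42.6% of the 35116 RefSeq promoter windows of this length, 0.285% have at least as many as RASSF4, and the median window holds 11 CpG. The consensus NF-kB site occurs in 5.21% of windows and in none of the 8 windows of the 7 genes of the set that could be looked up, both strands searched and overlapping matches allowed. A match, or its absence from these letters, describes the sequence and not the binding of a factor.

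RASSF2, the close relative of RASSF4 that also binds MST kinases, was lower at 3 and 7 days mainly in replicate 1. It stood at 147.6 and 145.6 CPM in control, 153 and 157 CPM at 24 h, 87.5 and 136 CPM at 3 days, and 90.6 and 138 CPM at 7 days. All 4 late libraries lay below all 4 early ones, and replicate 1 lay far below replicate 2. The log2 fold change of the later against the earlier groups was -0.42 ± 0.20 (SE; edgeR, adjusted p = 0.375). Relative to the earlier libraries the difference was -0.76 in late replicate 1 and -0.14 in late replicate 2, with an SD of 0.05 among the earlier libraries. Its log2 fold change against control was -0.39 at 3 days and -0.36 at 7 days, and became -0.095 and -0.086 with replicate 1 of both later groups left out.

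RASSF1, a tumour suppressor gene, was the one member above its earlier level in every late library. It stood at 24.1 and 23.9 CPM in control, 25.0 and 25.6 CPM at 24 h, 30.1 and 30.1 CPM at 3 days, and 28.6 and 26.1 CPM at 7 days. The order of the groups was control, 24 h, 7 days and 3 days from low to high, and no neighbours in it overlapped. The gaps were narrow, 24.1 against 25.0 CPM from control to 24 h and 25.6 against 26.1 CPM from 24 h to 7 days. With 233 to 337 reads per library, gaps of this size are uncertain. Taken singly, 24 h lay wholly above control for 11.4% of all tested genes. Likewise 7 days lay wholly above 24 h for 17.9%, and wholly below 3 days for 6.41%. The share of genes with the whole order was not counted. The sizes were small, with a log2 fold change of 0.22 ± 0.14 (SE) for the later against the earlier groups (edgeR, adjusted p = 0.469). The difference was similar in both late replicates, 0.25 in replicate 1 and 0.19 in replicate 2. In GENCODE 29 an antisense gene shares 8.94% of RASSF1's exon bases, and with the strand setting of the counting not given, its reads cannot be told apart from those of RASSF1. The same holds for RASSF3, which shares 9.12% and 4.16% of its exon bases with 2 antisense genes.

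The other RASSF genes showed no step between the early and late groups. RASSF3, which is known to promote p53 activity through MDM2, stood at 263 and 312 CPM in control, 329 and 256 CPM at 24 h, 381 and 268 CPM at 3 days, and 392 and 266 CPM at 7 days. Both late replicate 1 libraries were above every other library, while late replicate 2 lay within the range of the earlier libraries. Its log2 fold change for the later against the earlier groups was 0.17 ± 0.20 (SE; edgeR, adjusted p = 0.674), and -0.12 with replicate 1 of both later groups left out.

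RASSF5, the RAP1 effector of lymphocytes, stood at 185 and 165 CPM in control, 141 and 173 CPM at 24 h, 198 and 165 CPM at 3 days, and 209 and 164 CPM at 7 days. Here too only late replicate 1 exceeded the earlier range, and the log2 fold change of 0.15 ± 0.16 (SE) for the later against the earlier groups did not pass (edgeR, adjusted p = 0.645), being -0.0080 without replicate 1 of both later groups. RASSF7 belongs to the branch of the family that lacks the SARAH domain and is known for a role in mitosis. With 13 to 34 reads per library it was the least sequenced member, at 1.66 to 3.03 CPM in the 3 and 7 day libraries, against 1.33 to 2.32 CPM in the control and 24 h libraries, and these ranges overlap. Its log2 fold change was 0.68 ± 0.46 (SE) at 3 days and 0.34 ± 0.46 at 7 days against control (edgeR, adjusted p = 0.843 and 0.883), and with single libraries left out it ran between 0.42 and 1.01 at 3 days, the lowest without control replicate 2. At 7 days it was -0.0069 without replicate 2 of that group and 0.08 without control replicate 2.

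The MST kinase genes were lower in late replicate 1. STK4, which encodes MST1, stood at 557.6 and 509 CPM in control, 514 and 529.8 CPM at 24 h, 375 and 552 CPM at 3 days, and 393 and 557.6 CPM at 7 days. Replicate 2 of both later groups lay near the upper end of the earlier range, and replicate 1 lay below all of it. The log2 difference from the earlier libraries was -0.46 in late replicate 1 and 0.07 in late replicate 2, where the SD among the earlier libraries was 0.06. Over both replicates the log2 fold change was -0.17 ± 0.19 (SE; edgeR, adjusted p = 0.664), and 0.08 without replicate 1 of both later groups.

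STK3, which encodes MST2, stood at 56.0 and 73.7 CPM in control, 76.5 and 60.4 CPM at 24 h, 38.3 and 53.9 CPM at 3 days, and 34.7 and 56.7 CPM at 7 days. The late libraries were low, though the highest of them just exceeded the lowest control library. STK3 had the smallest p of the 8 genes tested: the log2 fold change of the later against the earlier groups was -0.54 ± 0.22 (SE), with an unadjusted p of 0.0411 and an adjusted p of 0.338 in edgeR. These p values take the close 3 and 7 day libraries of a replicate number as separate, and may be too small. Without replicate 1 of both later groups it was -0.27, with an unadjusted p of 0.206 in edgeR.

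SAV1, the scaffold of the MST kinases, had the smallest log2 fold change of the 9 genes between the later and the earlier groups. It stood at 34.5 and 33.3 CPM in control, 35.1 and 34.3 CPM at 24 h, 31.5 and 38.7 CPM at 3 days, and 38.0 and 29.8 CPM at 7 days. The late libraries spread to both sides of the earlier ones, and the log2 fold change of 0.0075 ± 0.16 (SE) did not pass (edgeR, adjusted p = 0.983).

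**Figure D2:**
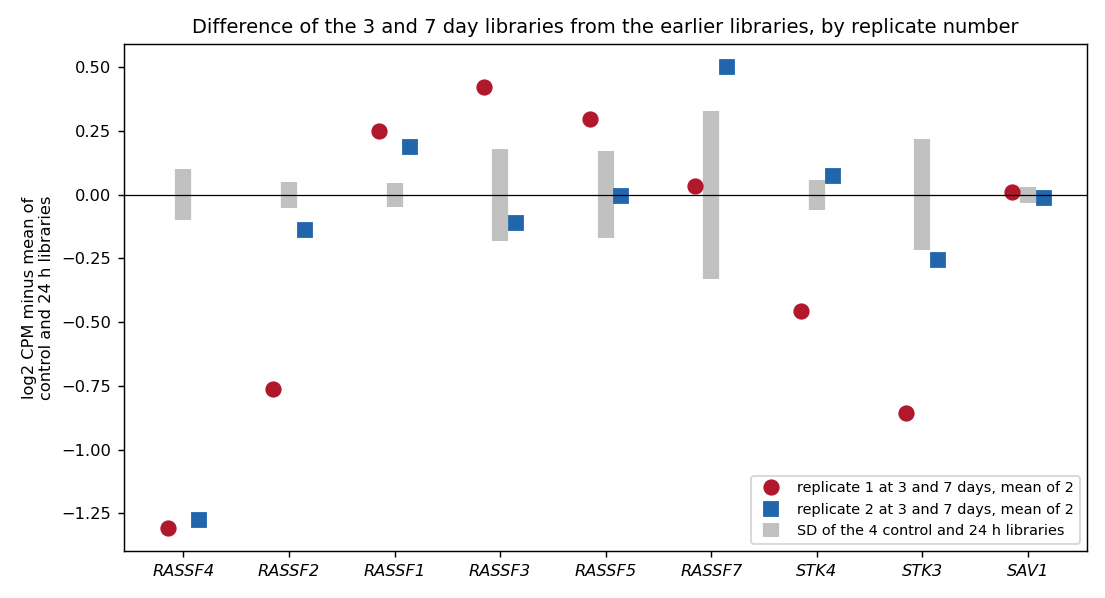
Log2 CPM of each gene in the 3 and 7 day libraries minus the mean of the 4 control and 24 h libraries (y axis), shown for replicate 1 (circles) and replicate 2 (squares), each a mean of 2 libraries; grey bars are the SD of the 4 earlier libraries. RASSF4 is at -1.31 and -1.28, whereas RASSF2, STK3 and STK4 are at -0.76, -0.85 and -0.46 in replicate 1 and -0.14, -0.26 and 0.07 in replicate 2.

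The split between late replicates touched 6 of the 8 genes besides RASSF4. RASSF2, RASSF7, STK3 and STK4 were lower in both replicate 1 libraries than in both replicate 2 libraries at 3 and 7 days, as were 38.8% of all tested genes. RASSF3 and RASSF5 were higher in both replicate 1 libraries, as were 38.2% of all tested genes. These are the libraries with fewer reads under no feature, and the part of that in the differences was not tested.

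Against control, none of the 8 genes tested passed an adjusted p of 0.05 in edgeR at 24 h, 3 days or 7 days, where 0% of all genes did in each comparison, and 0 of 8 had an unadjusted p under 0.05 in any of the 3. DESeq2 and limma-voom also called 0 of the 8 in these 3 comparisons. Over all genes DESeq2 called 0 at 24 h, 9 at 3 days and 15 at 7 days, and limma-voom called 0 in each. Among all genes an unadjusted p under 0.05 was found at 24 h for 0.0877% lower and 0.0877% higher, at 3 days for 3.13% lower and 2.15% higher, and at 7 days for 3.09% lower and 1.85% higher. Adjusted p values in edgeR were 1 at 24 h, 0.843 to 0.970 at 3 days and 0.851 to 0.999 at 7 days. At 24 h all libraries were above control for RASSF1, RASSF2 and RASSF7 (background 11.4% of genes) and below for none (12.5%), with log2 fold changes of 0.08, 0.08 and 0.43. At 3 days RASSF2 and STK3 lay wholly below control (17.2% of genes) and RASSF1 and RASSF7 wholly above (16.7%). At 7 days RASSF2 lay wholly below control (17.9%) and RASSF1 wholly above (16.6%).

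For the later against the earlier groups, 0 of the 8 genes passed in edgeR (0.00798% of all genes did, 1 gene). DESeq2 called 276 genes, edgeR with no count filter 489 and limma-voom 1, with 0 of the 8 among them in each. In the edgeR fit STK3 alone had an unadjusted p under 0.05 in the lower direction (7.24% of genes), and 0 of 8 in the higher direction (6.94%). RASSF2 lay wholly below (7.43% of genes) and RASSF1 wholly above (5.93%). The contrasts of 3 and 7 days with 24 h, of 7 with 3 days, and the joint test of the 4 groups also called 0 of the 8 in edgeR, with 0% of all genes called and 0 of the 8 at an unadjusted p under 0.05. For that unadjusted threshold the background at 3 days against 24 h was 3.77% lower and 2.32% higher, at 7 days against 24 h 3.75% lower and 2.21% higher, at 7 against 3 days 0.152% lower and 0.0957% higher, and in the joint test 3.56%. At 3 days RASSF2 and STK3 lay wholly below 24 h (17.6% of genes) and RASSF1 and RASSF7 wholly above (17.0%). At 7 days RASSF2 and STK3 lay wholly below 24 h (19.1%) and RASSF1 wholly above (17.9%). RASSF1 at 7 days lay wholly below 3 days (6.41%), and none of the 8 lay wholly above.

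**Figure D3:**
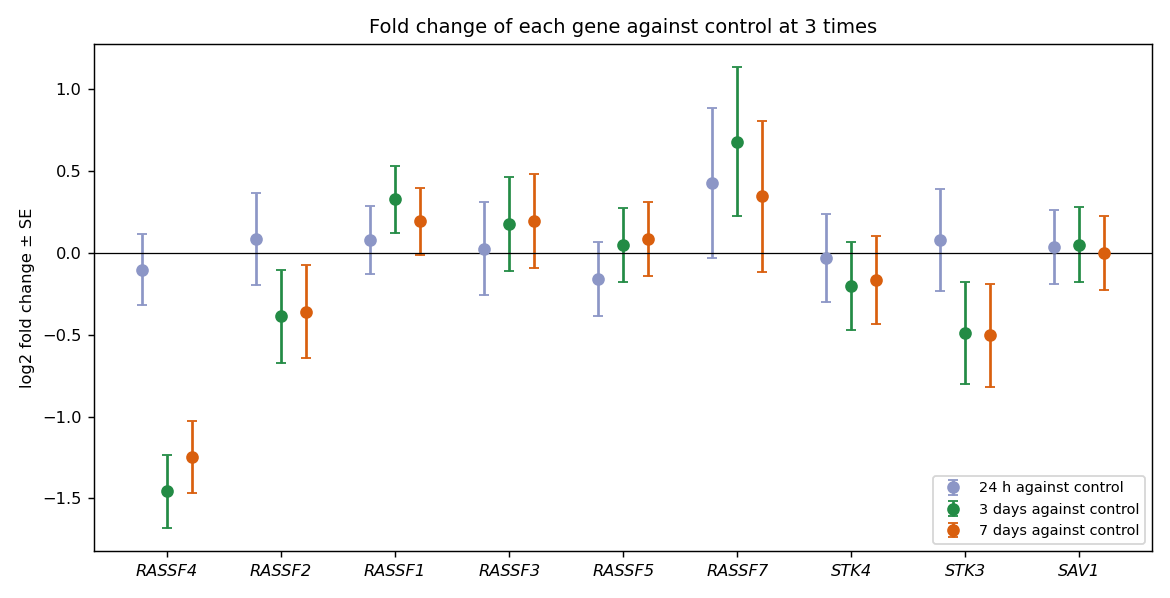
Log2 fold change against control (y axis; points, with bars of 1 SE from the edgeR fit of 8 libraries) of each of the 9 genes at 24 h, 3 days and 7 days. RASSF4 is at -0.10, -1.46 and -1.25, and the other 8 genes lie between -0.50 and 0.68.

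Levels were compared between genes only per length of exon, taken from GENCODE 29 gene models (GRCh38), since the annotation used for counting is not given. In control cells STK4 was the most abundant of the 9, at 82.8 ± 5.38 CPM per kilobase (SD, n = 2), followed by RASSF3 at 72.8 ± 8.81. The means of STK4 and RASSF3 differed by more than either SD, though their SD ranges overlapped. RASSF5 and RASSF2 came next at 26.9 CPM per kilobase each, within their spread. STK3 stood at 19.4 ± 3.76 CPM per kilobase. SAV1 (11.1 ± 0.29), RASSF4 (10.7 ± 1.05) and RASSF1 (10.2 ± 0.07 CPM per kilobase) came next, where RASSF4 was within its spread of both and SAV1 lay above RASSF1 by more than their SDs, and RASSF7 was lowest at 0.74 CPM per kilobase. At 3 and 7 days RASSF4 averaged 4.20 CPM per kilobase over the 4 libraries, below all members but RASSF7.

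The genes whose pattern was most like that of RASSF4 shared its step down between 24 h and 3 days. Likeness was measured as Pearson's r of log2 CPM over the 8 libraries, among 9288 genes with at least 5 CPM on average, all from 1 cell line. The 8 most alike were GBP1 (an interferon-induced GTPase, r = 0.99), LNX1 (a ubiquitin ligase, 0.98), IL2RA (the interleukin-2 receptor alpha chain, 0.98), ITGA1 (an integrin subunit, 0.98), TRAF1 (a TNF receptor adaptor, 0.98), CLIC2 (a chloride channel family protein, 0.97), SPPL2A (an intramembrane protease, 0.97) and NFKB2 (an NF-kB subunit, 0.97). NFKB2 stood at 73.6 to 78.5 CPM at 3 and 7 days, against 128 to 155 CPM in control and at 24 h. GBP1 stood at 84.2 to 103 CPM in the later groups, against 143 to 158 CPM in the earlier groups. In both genes the late libraries lay wholly below the early ones, as for RASSF4 and for 7.43% of all tested genes. Both were picked for their likeness to RASSF4, so the shared step follows from that choice.

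In all, 106 genes had an r of at least 0.9 and 64 an r of -0.9 or lower, so the order among them is loose: with Spearman's correlation 1 of the 8 stayed among the 8 highest, and with replicate 1 of both later groups left out 2 did. The 4 most opposite genes were TBX21 (the T-bet transcription factor, r = -0.98), SNTB2 (a syntrophin, -0.98), CNNM3 (a magnesium transport family protein, -0.97) and PPP1R3B (a glycogen-targeting subunit of protein phosphatase, -0.96). TBX21 stood at 6.96 to 7.61 CPM at 3 and 7 days, against 4.04 to 5.12 CPM in control and at 24 h. None of the other 8 members was among the most alike: RASSF2 had an r of 0.71, STK3 0.70 and STK4 0.48, and RASSF1 was at -0.88.

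**Figure D4:**
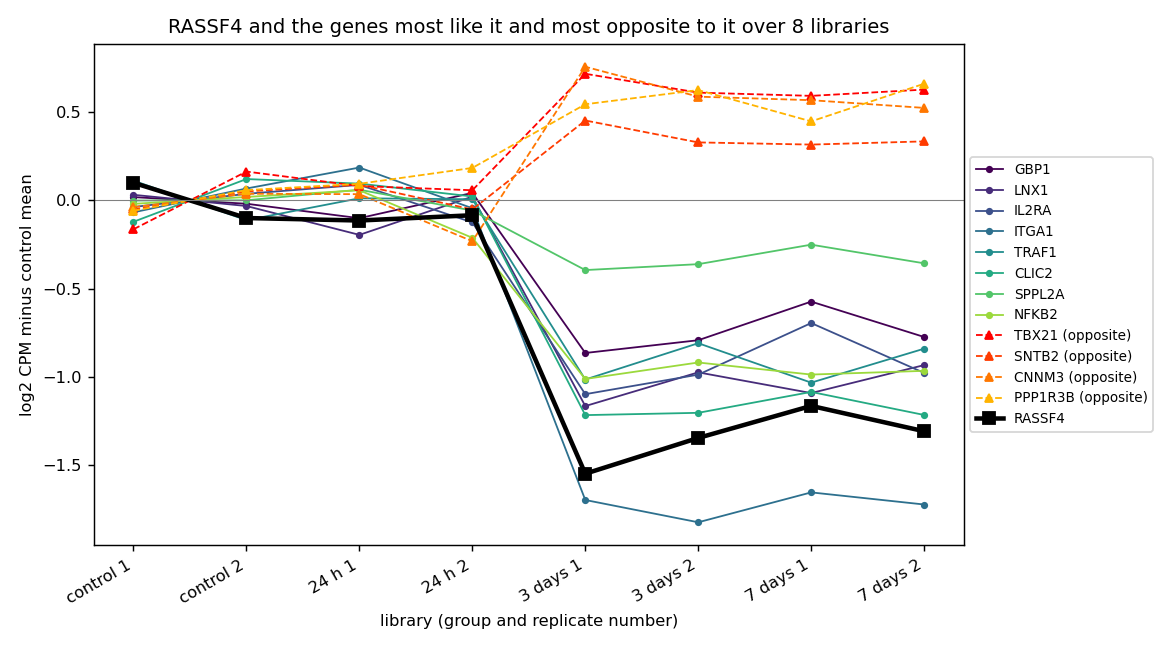
Log2 CPM minus the control mean (y axis) in each of the 8 libraries (x axis) for RASSF4 (thick black line), the 8 genes most like it (solid lines) and the 4 most opposite (dashed). RASSF4 runs between ITGA1 and the other 7 at 3 days, and the opposite genes lie above 0 in all 4 late libraries.

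Around the 9 genes, 7 lists of pathway partners were read in the comparison of the later with the earlier groups, and 0 of their 76 tested genes passed (edgeR; smallest adjusted p = 0.275). Unadjusted p was under 0.05 for 2 lower and 5 higher genes, and late and early libraries did not overlap for 2 lower and 4 higher genes of the 76. Among all genes an unadjusted p under 0.05 was found for 7.24% lower and 6.94% higher, and no overlap for 7.43% lower and 5.93% higher. The median log2 fold change was -0.02 over the 76 and 0.0062 over all 12536 tested genes. Of the 76, 36 were higher and 40 lower, against 6335 and 6201 of all tested genes.

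Of 23 Hippo kinases, adaptors and upstream regulators, 21 were tested, with 6 higher and 15 lower values and a median of -0.10. PTPN14, a phosphatase that binds YAP, was the one gene of this list with no overlap, at 24.4, 25.7, 26.3 and 25.3 CPM in the later libraries, against 28.6, 29.6, 31.7 and 29.9 CPM in the earlier ones (log2 fold change -0.24 ± 0.14 SE, edgeR adjusted p = 0.447). The LATS coactivator gene MOB1B had a log2 fold change of -0.33 ± 0.20, the merlin gene NF2 0.37 ± 0.17 and the LIM protein gene AJUBA 0.97 ± 0.44 (SE; edgeR, adjusted p = 0.449, 0.362 and 0.360). AJUBA was at a low level, 0.99 to 2.41 CPM in the later libraries, against 0.70 to 1.41 CPM in the earlier ones, which overlap.

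Of 13 genes for YAP, TAZ, TEAD factors and their partners and targets, 9 did not pass the count filter, among them YAP1 and the YAP targets CYR61, CTGF and ANKRD1. Of the 4 tested, TEAD4, a partner of YAP, stood at 1.95, 2.77, 1.77 and 3.42 CPM in the later libraries, against 1.14, 0.82, 1.41 and 1.58 CPM in the earlier ones. It was higher in all late libraries at a low level (log2 fold change 1.02 ± 0.37 SE, edgeR adjusted p = 0.310). AMOTL1, which holds YAP at junctions, stood at 127, 118, 123 and 109.6 CPM in the later libraries, against 105, 95.8, 82.6 and 98.8 CPM in the earlier ones (0.32 ± 0.14, edgeR adjusted p = 0.355). VGLL4, a cofactor of TEAD factors, stood at 174 to 202 CPM in the later libraries, against 135 to 182 CPM in the earlier ones, which overlap (0.27 ± 0.16, edgeR adjusted p = 0.445). WWTR1, which encodes TAZ, was at -0.44 ± 0.26 (edgeR, adjusted p = 0.438).

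The STRIPAK complex is a phosphatase assembly that removes phosphate from MST kinases, and 16 of its 17 genes were tested, with 9 higher and 7 lower values and a median of 0.06. STRIP2, a scaffold of the complex, stood at 8.94, 8.83, 7.62 and 7.24 CPM in the later libraries, against 14.8, 10.7, 11.2 and 13.5 CPM in the earlier ones. It was lower in all 4 late libraries and in both replicates (log2 fold change -0.63 ± 0.20 SE, edgeR adjusted p = 0.275). PPP2R1A, the scaffold subunit of the phosphatase, stood at 201, 133, 194 and 133 CPM in the later libraries, against 127, 108, 112 and 111 CPM in the earlier ones, with the higher values in late replicate 1 (0.53 ± 0.19, edgeR adjusted p = 0.312). The kinase gene STK24 was at 0.47 ± 0.19 (edgeR, adjusted p = 0.334). It stood at 326 and 338 CPM in late replicate 1 and at 222 and 255 CPM in late replicate 2. The earlier libraries ran from 175 to 230 CPM, so late and early libraries overlapped.

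Among RAS and RAP GTPases, the proteins that RASSF proteins bind, 9 of 11 genes were tested, with 4 higher and 5 lower values and a median of -0.02. HRAS stood at 25.0 and 23.7 CPM in replicate 1 at 3 and 7 days and at 3.48 and 3.92 CPM in replicate 2, against 3.92 to 5.80 CPM in the earlier libraries. Its log2 fold change of 1.58 ± 0.69 (SE; edgeR, adjusted p = 0.352) thus came from late replicate 1. RAP2B stood at 170 and 179 CPM in late replicate 1 and 78.6 and 71.0 CPM in late replicate 2, against 57.0 to 69.1 CPM in the earlier libraries (0.98 ± 0.33, edgeR adjusted p = 0.299). RAP2A was at -0.50 ± 0.20 (edgeR, adjusted p = 0.330).

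The genes through which RAP1 and RASSF5 act on lymphocyte integrins were all tested, with 4 of 14 higher, 10 lower and a median of -0.12. Of all 12536 tested genes, 6335 were higher and 6201 lower. Some of the lower values came from late replicate 1. DOCK2 stood at 186 and 183 CPM there and at 511 and 570 CPM in late replicate 2, against 385 to 472 CPM in the earlier libraries. TLN1, also lower, lay within its earlier range of 440 to 564 CPM in every late library. The coronin gene CORO1A was at 0.08 ± 0.17, the integrin beta-2 gene ITGB2 at 0.32 ± 0.19 and the adaptor gene FYB, at 0.21 to 0.89 CPM in the later libraries, against 0.74 to 2.01 CPM in the earlier ones, at -1.03 ± 0.59 (SE; edgeR, adjusted p = 0.818, 0.441 and 0.432). Of 10 apoptosis and FOXO partners of RASSF and MST proteins, 9 had higher and 1 a lower value, with a median of 0.33 and 0 called. Some of the higher values came from late replicate 1. MDM2 stood at 2125 and 2229 CPM there and at 1255 and 1249 CPM in late replicate 2, against 1170 to 1864 CPM in the earlier libraries. FOXO1 stood at 117 and 129 CPM in late replicate 1 and 142 and 143 CPM in late replicate 2, against 70.8 to 126 CPM earlier. The initiator caspase gene CASP9 was at 0.34 ± 0.20 and the transcription factor gene FOXO4 at 0.50 ± 0.24 (SE; edgeR, adjusted p = 0.437 and 0.368). Late and early libraries overlapped for all 10. Of RASSF genes outside the set, RASSF6 was at -0.19 ± 0.26 and RASSF10, at 0.36 to 1.32 CPM in the later libraries, against 0.20 to 1.02 CPM in the earlier ones, at 0.81 ± 0.65 (SE; edgeR, adjusted p = 0.724 and 0.544).

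**Figure D5:**
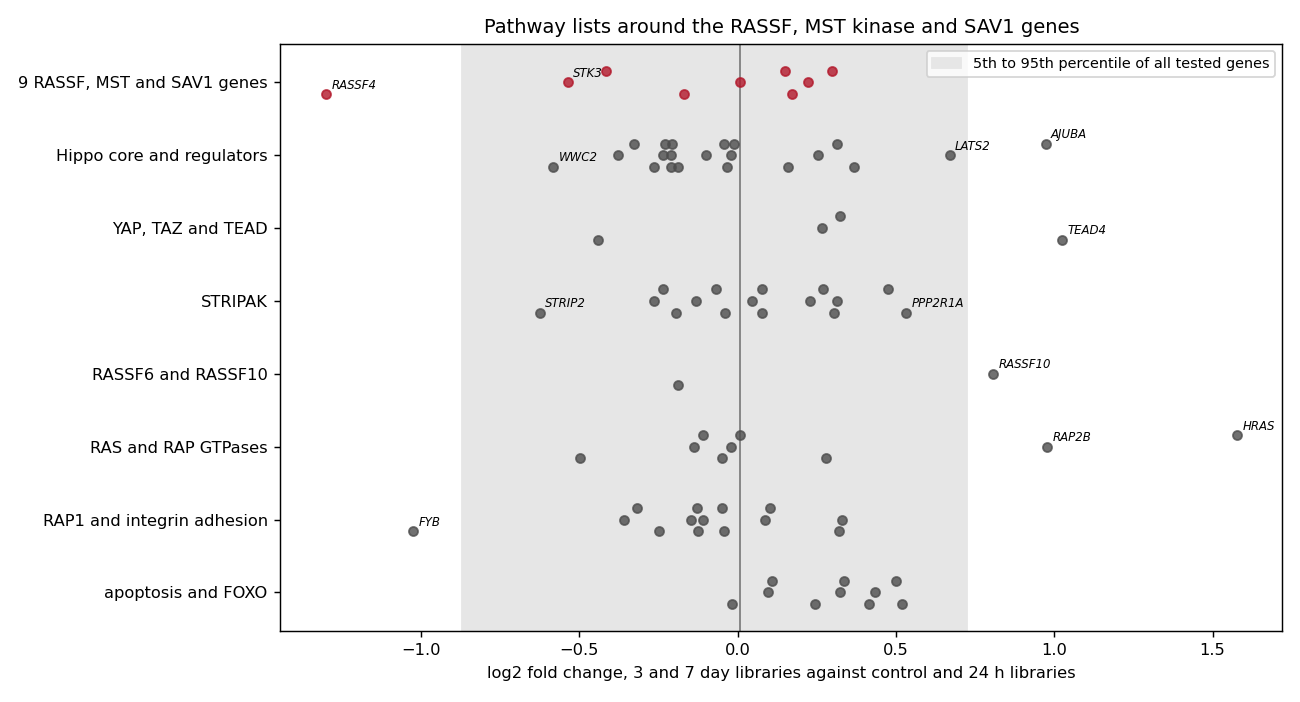
Log2 fold change of the 3 and 7 day libraries against the control and 24 h libraries (x axis) for the 9 genes and 7 partner lists (rows), a point per gene, with some of the outer genes named; the grey band spans the 5th to 95th percentile of all tested genes (-0.87 to 0.73). RASSF4, at -1.30, is the lowest point of the plot.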

How the data were processed

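Per the labels' protocols, poly-A mRNA libraries were sequenced as paired reads of 150 bases. Each library has a deposited table of raw read counts by gene symbol. The submitters' processing notes list SAMtools, Bowtie2, Trim Galore, R 3.2.3 and DESeq2 1.8.1, and the builds hg19 and GRCh37. How reads were counted, with which strand setting and annotation, is not given in the sources used here. Entries naming no gene (42.6% to 57.5% of reads) were left out. Genes were filtered with filterByExpr (minimum count 10, total 15), scaled with TMM and fitted with the quasi-likelihood test of edgeR 4.0.16 (R 4.3.3) on all 8 libraries, a coefficient per group; p values were adjusted by Benjamini-Hochberg over 12536 genes, with calls under 0.05. SE was the size of the log2 fold change over the square root of F; log2 CPM used a prior count of 2. The members, lists and tests were chosen with earlier results of these data known. Named partner genes are, per list, the 3 tested genes with the smallest p in the joint test (no listed gene had an adjusted p under 0.05), and the 8 genes most and 4 least correlated with RASSF4; 1 gene that the rule names is not reported here. PTPN14 was named after its values were seen, as the one gene of its list without overlap. VGLL4, the remaining tested gene of its list, was also named outside the rule. So were DOCK2, TLN1, MDM2 and FOXO1, named after their values were seen, to show how late replicates differed. Clone-type symbols (LOC, LINC, KIAA, FLJ, open reading frames), XIST and Y chromosome genes were not candidates for the correlation with RASSF4. Promoters are from RefSeq (GRCh38.p14), found for 7 of the 9 genes. The alternatives tried were DESeq2 1.42.0, upper-quartile or RLE scaling, limma-voom (limma 3.58.1), no filter, a filter of 50 counts in 2 libraries, robust estimation, fits of only the groups compared, a replicate block, and libraries left out.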

Additional observations from a re-analysis of the deposited data

How the results depend on the processing

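Over 19 alternatives and 8 tests, 0 of the 8 genes besides RASSF4 were called in each of the 144 values obtained, while the genes called among all ran up to 489 (later against earlier groups, no count filter), with 276 by DESeq2 and 1 in the edgeR fit as reported. In the joint test DESeq2 called 65 and the fit with no count filter 67, against 0. RASSF4 kept its direction, with log2 fold changes of -1.57 to -1.35 at 3 days and -1.34 to -1.14 at 7 days against control. With replicate 1 of both later groups left out, signs turned for RASSF3 (-0.094 at 3 days, -0.11 at 7 days and -0.12 for the later against the earlier groups), STK4 (0.060, 0.068 and 0.077) and, in the last of these, RASSF5 (-0.0080). With single libraries left out, RASSF3 ranged from -0.10 to 0.41 at 3 days and -0.11 to 0.46 at 7 days, STK4 from -0.51 to 0.053 and -0.42 to 0.065, and RASSF7 from 0.42 to 1.01 at 3 days and -0.0069 to 0.68 at 7 days. Of the 8 genes most like RASSF4, 1 was kept with Spearman's correlation and 2 without late replicate 1; the cause was not tested. RASSF7 gave no value under the stricter filter. The replicate number as a block called 0 of the 8 genes in every comparison. Same-numbered libraries deviated together between 3 and 7 days (correlation 0.81) but oppositely between control and 24 h (-0.60), and a block with those numbers crossed, chosen after seeing the data and run for 24 h against control and 7 against 3 days, called 0 of the 8 genes, with 94 and 10 of all genes called, against 0 and 0 without a block. With 13 to 34 reads per library, small differences of RASSF7 could be missed. How large a difference could be detected at this depth was not measured.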

Other observations

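C10orf10, a gene induced by FOXO factors, lies within the span of RASSF4 on the opposite strand in GENCODE 29 and shares no exon bases with it. It was looked at after its values were seen. It had 88 reads in replicate 1 and 19 in replicate 2 at 3 days, and 75 and 16 at 7 days, against 23 and 20 in control and 10 and 26 at 24 h. Its reads were thus high in late replicate 1 only, where RASSF4 was as low as in late replicate 2.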
